A study of Homo sapiens with 9 samples.

Results

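The 10 genes described here belong to the TGF-beta pathway: the ligands TGFB1 and TGFB2, the latent TGF-beta binding proteins LTBP1 and LTBP3, the receptors TGFBR1 and TGFBR2, the signal transducers SMAD2 and SMAD3, the inhibitory SMAD7, and the TGF-beta induced matrix protein TGFBI. They were chosen by name, with earlier results of these data known, and all 10 were found among the 27615 genes of the longest deposited list. Poly(A) RNA was sequenced from MDA-MB-231, an established human triple-negative breast cancer line of mesenchymal character. All 9 libraries came from this line: 3 from cells given the solvent DMSO (vehicle), 3 from cells given rimonabant, a cannabinoid receptor CB1 antagonist, and 3 from cells given TXX-1-10, a compound derived from rimonabant. How much of each compound these cells received, and for how long, was not given in the sources used here, so it is not known whether the 2 compounds were matched, and nothing said whether the 3 libraries of a group came from separate cultures. The p-values therefore measure the spread between these libraries, which may be technical. The comparisons ask which TGF-beta genes each compound changed and where TXX-1-10 differed from rimonabant.

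TGF-beta is secreted as a latent complex, held in the matrix by latent TGF-beta binding proteins, and must be released before it can bind its receptors. The released ligand brings together TGFBR2, which binds it with high affinity, and the kinase TGFBR1, which phosphorylates SMAD2 and SMAD3. These join SMAD4 and act in the nucleus on target genes, among them SMAD7, whose product feeds back on the receptor. In breast cancer cells the pathway is known both for growth arrest and, in mesenchymal cells such as these, for invasion and matrix production. TGF-beta2 differs from TGF-beta1 in binding TGFBR2 poorly without a co-receptor.

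The promoters of the 2 ligand genes are shown because their transcripts moved in opposite directions. Each stretch is the 250 bases before the RefSeq transcription start on GRCh38.p14, written 5′ to 3′ on the gene's own strand, and capitals mark matches to any of 6 searched motifs. The TGFB2 stretch lies at chr1:218345086-218345335 on the plus strand, where the RefSeq start is 899 bases before the start of the gene model on which TGFB2 was counted, and the TGFB1 stretch at chr19:41353923-41354172 on the minus strand.
TGFB2: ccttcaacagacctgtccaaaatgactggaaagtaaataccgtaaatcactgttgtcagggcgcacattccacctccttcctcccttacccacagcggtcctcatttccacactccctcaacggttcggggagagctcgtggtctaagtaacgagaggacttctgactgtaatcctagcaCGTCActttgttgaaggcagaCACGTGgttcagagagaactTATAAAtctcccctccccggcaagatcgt
TGFB1: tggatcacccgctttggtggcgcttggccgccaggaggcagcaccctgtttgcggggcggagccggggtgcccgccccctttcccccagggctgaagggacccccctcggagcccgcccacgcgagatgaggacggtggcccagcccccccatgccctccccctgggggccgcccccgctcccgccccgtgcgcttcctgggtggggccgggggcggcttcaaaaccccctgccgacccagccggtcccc

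In the TGFB2 promoter TGACG, the core of the cyclic AMP response element, stood 70 bases before the start, on the opposite strand and so read as CGTCA, followed by the E-box CACGTG 49 bases and TATAAA 29 bases before it. In TGFB1 none of the 6 motifs matched. Over the 35116 RefSeq promoters of this length, TGACG was found in 21.2%, CACGTG in 6.34% and TATAAA in 10.7%. The other motifs searched were TGACGTCA, the full cyclic AMP response element (1.65% of promoters, which also holds TGACG on both strands), the SMAD palindrome GTCTAGAC (0.182%) and the C/EBP-ATF core TGATGNAA (3.14%), all read on both strands. The TGFB1 stretch was 76.8% G or C with 21 CpG dinucleotides and the TGFB2 stretch 50.4% with 11, against medians of 58.0% and 11 over all promoters. TGACGTCA was found for LTBP1 in the first of its 3 RefSeq promoters, 94 bases before the start. CACGTG was also found in the first of 5 for SMAD3, 173 bases before the start, and TATAAA in the second of 3 for SMAD7, 35 bases before it. TGACG was also found in the second promoter of LTBP1, the fourth of TGFBR1 and the fifth of SMAD3. These matches describe sequence only.

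The library sizes by which the deposited FPKM were scaled, recovered from count, FPKM and length, were 17078370 to 17245379 reads for vehicle, 17477838 to 18813662 for rimonabant and 18394759 to 19277808 for TXX-1-10. They are not the total of all reads counted, since the listed counts alone summed to more in vehicle replicate 1 (17492638) and vehicle replicate 3 (17383157). Each deposited list ends partway through a common gene order, and a gene missing from a list was not read as 0. Rimonabant replicate 1 listed 4237 genes. So 6 members, TGFB1, LTBP1, TGFBR2, SMAD2, SMAD3 and TGFBI, were tested in all 9 libraries among 4236 genes, and 4 members, TGFB2, LTBP3, TGFBR1 and SMAD7, in the 8 other libraries among 9369 genes, with 2 rimonabant libraries. Rimonabant replicate 1 and TXX-1-10 replicate 3 stood apart from the other libraries of their groups: their deviation fell with gene length (Spearman's rank correlation -0.694 and -0.692, across genes, which are not independent replicates). Of the 6 marker genes of MDA-MB-231, all were expressed, with VIM (vimentin) at 280 ± 5.31 FPKM in vehicle (SD, n = 3). Under TXX-1-10, 4 of the 6 fell (log2 fold change -2.70 for CAV1, -0.78 for AXL, -0.70 for KRT18 and -0.52 for CD44) and none rose, and under rimonabant 3 fell, among them CAV1 (-1.53), and 1 rose. Of the 4236 and 9369 genes tested, 74.4% and 75.3% changed under TXX-1-10 at an adjusted p under 0.05, 43.8% and 40.6% as lower. Under rimonabant 48.9% and 46.5% did, 25.2% and 22.8% as lower. The part of the marker changes in the results below was not tested. The luminal, fibroblast, leukocyte and endothelial markers that were listed had group means of at most 1.35 FPKM, and CDH1 (E-cadherin) was listed at 0 in the 4 libraries that list it. PBXIP1, which encodes the study's target HPIP, had 8.45 ± 0.413 FPKM in vehicle (n = 3), 11.9 ± 0.283 in rimonabant (n = 2) and 15.5 ± 0.856 in TXX-1-10 (n = 3). Its transcript was thus higher under TXX-1-10 (log2 fold change 0.88, adjusted p = 9.58e-08) and under rimonabant (0.50, adjusted p = 0.000189).

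Values are in FPKM, fragments scaled to listed exon length and to library size. Log2 fold changes, their approximate standard errors (SE) and p-values are from edgeR's quasi-likelihood test on the deposited counts, adjusted by Benjamini-Hochberg over all genes of the fit. A gene was said to pass at an adjusted p under 0.05, and to be past both thresholds when its log2 fold change was also at least 1 in size.

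The largest change among the 10 genes was the fall of TGFB2 (ENSG00000092969, chr1:218346235-218444619, plus strand, 8 exons in its longest coding transcript). Its FPKM was 19.3, 17.9 and 18.1 in vehicle, 4.13 and 3.99 in the rimonabant libraries that list it, and 1.40, 1.56 and 1.498 in TXX-1-10. The 3 groups did not overlap, with vehicle highest and TXX-1-10 lowest. The reads behind these values were 1701, 1586 and 1602, then 400 and 381, then 139, 148 and 142. TGFB2 was 4.53-fold lower under rimonabant than under vehicle (log2 fold change -2.18, SE 0.07, adjusted p = 6.1e-09) and 12.4-fold lower under TXX-1-10 (-3.63, SE 0.07, adjusted p = 6.45e-12). It was 2.73-fold lower under TXX-1-10 than under rimonabant (-1.45, SE 0.09, adjusted p = 3.86e-08). Among the 9369 genes of the fit its log2 fold change was the 3rd lowest under rimonabant and the 4th lowest under TXX-1-10. In bulk RNA, fewer cells with the transcript and less transcript per cell cannot be told apart.

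TGFB1 (ENSG00000105329, chr19:41301587-41353911, minus strand, 7 exons), the ligand with the higher FPKM of the pair in each of the 8 libraries that list both, moved the other way. It had 28.9, 27.7 and 30.2 FPKM in vehicle, 35.1, 28.8 and 32.5 in rimonabant, and 41.7, 41.1 and 43.0 in TXX-1-10. All TXX-1-10 libraries were above all others, while rimonabant overlapped vehicle. TGFB1 was 1.45-fold higher under TXX-1-10 than under vehicle (0.54, SE 0.07, adjusted p = 5.4e-05) and 1.31-fold higher than under rimonabant (0.38, SE 0.07, adjusted p = 0.00076). For rimonabant against vehicle the log2 difference was 0.15 with a 95% interval of -0.0056 to 0.31 (adjusted p = 0.10), and it passed under 3 of 22 alternative settings. TGFB1 shares 215 exon bases with HNRNPUL1 on the opposite strand, and whether the counting used strand was not given in the sources used here. HNRNPUL1 itself was lower under TXX-1-10 (-0.95, adjusted p = 4.56e-08) and under rimonabant (-0.41, adjusted p = 9.81e-05). For TGFB2, 1371 exon bases are also annotated to TGFB2-OT1 on the same strand, a gene without values here.

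**Figure D1:**
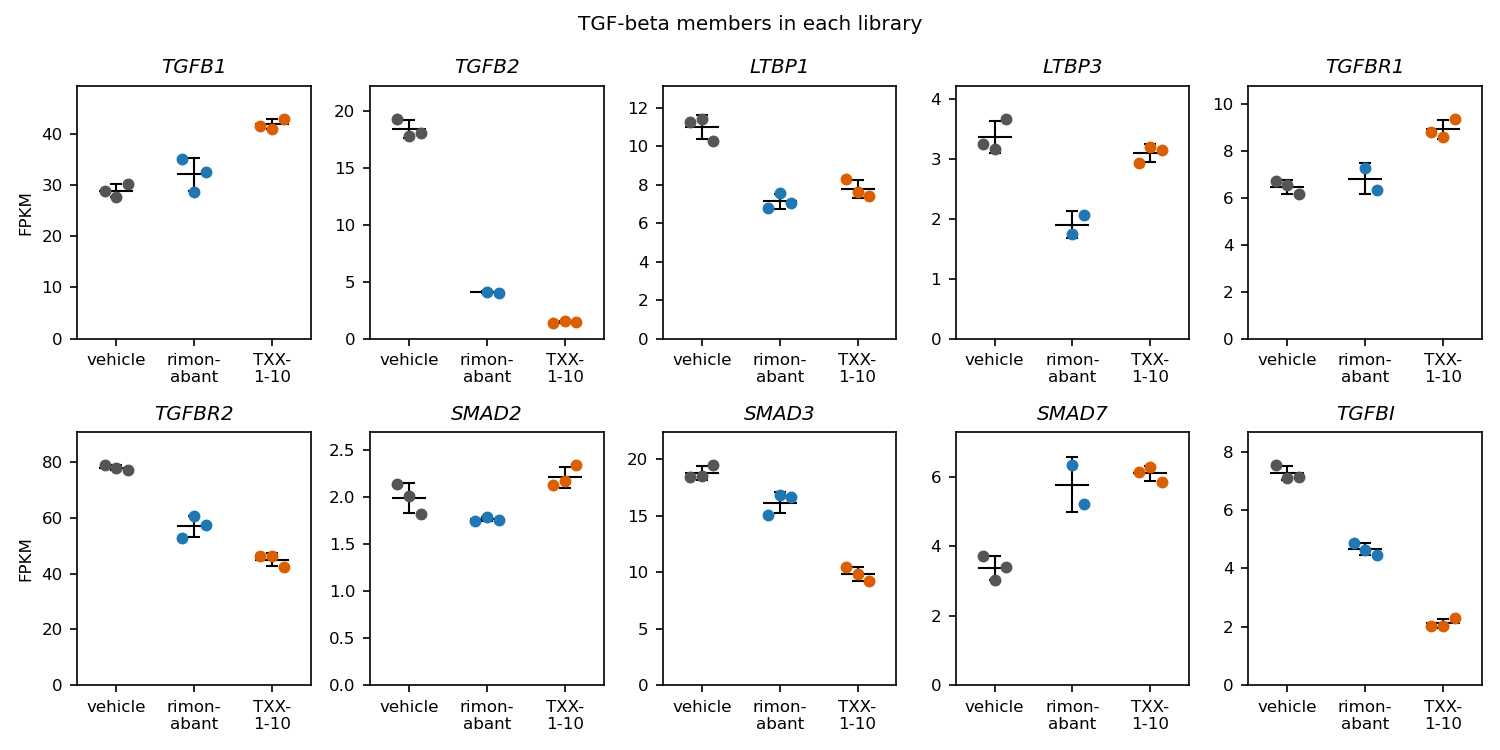
FPKM of each of the 10 genes (vertical axes, from 0, a separate scale per gene) by treatment, 1 point per library with the mean and SD in black. TGFB2, TGFBI, TGFBR2 and SMAD3 step down from vehicle through rimonabant to TXX-1-10, TGFB1 is highest in TXX-1-10, and TGFB2, LTBP3, TGFBR1 and SMAD7 have 2 rimonabant points.

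The balance of the 2 ligand transcripts was therefore different in each group. Within a library, the ratio of TGFB1 to TGFB2 FPKM was 1.57 ± 0.0907 in vehicle (SD, n = 3), 6.98 and 8.15 in the 2 rimonabant libraries, and 28.3 ± 1.79 in TXX-1-10 (n = 3). TGFB2 made up 37.4% to 40.1% of the summed FPKM of both in vehicle, 10.9% to 12.5% in rimonabant and 3.25% to 3.66% in TXX-1-10. The sum itself was 47.3 ± 1.59 in vehicle, 34.7 ± 2.54 in rimonabant (n = 2) and 43.4 ± 0.966 in TXX-1-10. These ratios restate the separate tests of the genes and were not tested themselves. The third isoform, TGFB3, named after its values were seen, was listed for 7 libraries and not tested. It had 118 and 121 reads in 2 vehicle libraries, 98 and 96 in 2 rimonabant libraries, and 94, 101 and 74 in TXX-1-10.

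**Figure D2:**
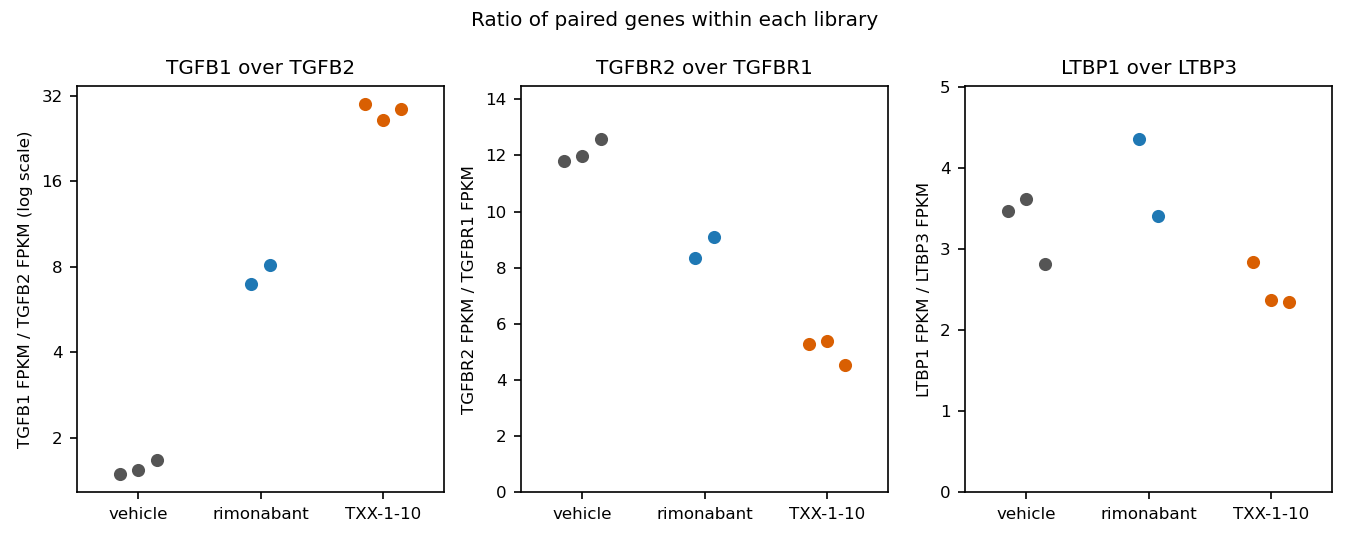
Ratios of FPKM within each library for 3 gene pairs by treatment, 1 point per library (vertical axis on a log scale for TGFB1 over TGFB2 and linear from 0 for the others). The ligand ratio rises from 1.495 to 1.67 in vehicle to 26.3 to 29.8 in TXX-1-10, the receptor ratio falls from 11.8 to 12.6 in vehicle to 4.55 to 5.40, and the LTBP ratios of vehicle and TXX-1-10 overlap.

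The latent TGF-beta binding proteins were both lower under rimonabant, and 1 of them was lower under TXX-1-10. LTBP1 (ENSG00000049323, chr2:32946972-33399509, plus strand), which carries the latent complex to the matrix, had 11.3, 11.4 and 10.3 FPKM in vehicle, 6.78, 7.58 and 7.04 in rimonabant, and 8.32, 7.62 and 7.40 in TXX-1-10. Both treated groups lay below vehicle and overlapped each other. LTBP1 was 1.54-fold lower under rimonabant (-0.63, SE 0.07, adjusted p = 5.83e-05) and 1.41-fold lower under TXX-1-10 (-0.50, SE 0.07, adjusted p = 6.85e-05). Between the compounds the log2 difference was 0.12 with a 95% interval of -0.03 to 0.28 (adjusted p = 0.136), and it passed under 5 of 22 alternative settings, with TXX-1-10 the higher.

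LTBP3 (ENSG00000168056, chr11:65538805-65558930, minus strand), another carrier of the latent complex, had 3.25, 3.16 and 3.67 FPKM in vehicle, 1.74 and 2.07 in rimonabant, and 2.93, 3.20 and 3.15 in TXX-1-10. The 2 rimonabant libraries were the lowest, and TXX-1-10 overlapped vehicle. LTBP3 was 1.77-fold lower under rimonabant than under vehicle (-0.82, SE 0.10, adjusted p = 4.91e-05) and 1.63-fold higher under TXX-1-10 than under rimonabant (0.70, SE 0.10, adjusted p = 6.42e-05). For TXX-1-10 against vehicle the difference was -0.12 (95% interval -0.30 to 0.06, adjusted p = 0.214). Its listed length of 10298 bases joins the exons of all 21 transcripts, while the longest coding one has 4443, so its FPKM is low for its read number and is best compared with itself.

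The receptors also moved in opposite directions under TXX-1-10. TGFBR2 (ENSG00000163513, chr3:30606502-30694142, plus strand), the ligand-binding type II receptor, had 78.9, 78.03 and 77.2 FPKM in vehicle, 52.9, 60.7 and 57.5 in rimonabant, and 46.4, 46.3 and 42.5 in TXX-1-10. The groups did not overlap. TGFBR2 was 1.37-fold lower under rimonabant (-0.45, SE 0.06, adjusted p = 0.00019) and 1.73-fold lower under TXX-1-10 (-0.79, SE 0.06, adjusted p = 7.99e-07). Under TXX-1-10 it was 1.27-fold lower than under rimonabant (-0.34, SE 0.06, adjusted p = 0.000584).

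TGFBR1 (ENSG00000106799, chr9:99104038-99154192, plus strand), the type I receptor kinase, had 6.69, 6.52 and 6.13 FPKM in vehicle, 7.26 and 6.33 in rimonabant, and 8.77, 8.59 and 9.34 in TXX-1-10. TXX-1-10 was above both other groups, which overlapped. TGFBR1 was 1.38-fold higher under TXX-1-10 than under vehicle (0.47, SE 0.07, adjusted p = 4.76e-05) and 1.31-fold higher than under rimonabant (0.39, SE 0.08, adjusted p = 0.000774). For rimonabant against vehicle the difference was 0.08 (95% interval -0.09 to 0.24, adjusted p = 0.44). The ratio of TGFBR2 to TGFBR1 FPKM was 12.1 ± 0.413 in vehicle, 8.35 and 9.09 in rimonabant, and 5.08 ± 0.462 in TXX-1-10 (SD, n = 3).

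Of the receptor-activated SMADs, SMAD3 fell and SMAD2 moved little. SMAD3 (ENSG00000166949, chr15:67063763-67195195, plus strand), which binds DNA, had 18.4, 18.5 and 19.4 FPKM in vehicle, 15.04, 16.8 and 16.6 in rimonabant, and 10.5, 9.84 and 9.19 in TXX-1-10. The groups did not overlap, and the gap between rimonabant and TXX-1-10 was wider than that between vehicle and rimonabant. SMAD3 was 1.91-fold lower under TXX-1-10 than under vehicle (-0.93, SE 0.06, adjusted p = 3.82e-07) and 1.64-fold lower than under rimonabant (-0.72, SE 0.06, adjusted p = 5.05e-06). Under rimonabant it was 1.16-fold lower than under vehicle (-0.22, SE 0.06, adjusted p = 0.0158). That call was lost without vehicle replicate 3 (-0.19, adjusted p = 0.061) and with the sum of counts over the genes of the fit as library size (-0.14, adjusted p = 0.144).

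SMAD2 (ENSG00000175387, chr18:47808957-47931146, minus strand), the partner of SMAD3 downstream of the receptor, had 2.14, 2.02 and 1.83 FPKM in vehicle, 1.75, 1.79 and 1.75 in rimonabant, and 2.13, 2.17 and 2.34 in TXX-1-10. TXX-1-10 overlapped vehicle, and rimonabant lay just below it. For TXX-1-10 against rimonabant SMAD2 was 1.25-fold higher (0.33, SE 0.06, adjusted p = 0.00138), and for TXX-1-10 against vehicle the difference was 0.15 (95% interval 0.0062 to 0.29, adjusted p = 0.0567). The latter passed under 4 of 21 alternative settings. Among these were TMM (0.25, adjusted p = 0.0043), DESeq2 (0.25, adjusted p = 0.000155) and the sum of counts over the genes of the fit as library size (0.32, adjusted p = 0.000723). For rimonabant against vehicle the difference was -0.18 (SE 0.07, adjusted p = 0.0469), a call kept under 6 of 21 alternative settings and reversed in sign (0.14, adjusted p = 0.475) when the trend with gene length was removed. SMAD2 has a listed length of 36366 bases, the longest of the 10, which sets its low FPKM. The call between the compounds was also lost with the length trend removed (0.22, SE 0.16, adjusted p = 0.224). Both calls were kept with rimonabant replicate 1 and TXX-1-10 replicate 3 left out. The difference was then -0.17 for rimonabant against vehicle (SE 0.06, adjusted p = 0.0145) and 0.28 between the compounds (SE 0.06, adjusted p = 0.000423). The ratio of SMAD3 to SMAD2 reads was 2.15, 2.30 and 2.67 in vehicle, 2.15, 2.35 and 2.37 in rimonabant, and 1.23, 1.14 and 0.985 in TXX-1-10. Rimonabant overlapped vehicle in this ratio, and all TXX-1-10 libraries were below both. The lowest ratio within each treated group was in its length-shifted library (rimonabant replicate 1 and TXX-1-10 replicate 3). Across genes the deviation of these libraries fell with length, and SMAD2 is the longer gene (SMAD3 has 9113 bases). The part of the length trend in the ratio was not tested.

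SMAD7 (ENSG00000101665, chr18:48919853-48952052, minus strand), the inhibitory SMAD that blocks the type I receptor, rose under both compounds. It had 3.73, 3.04 and 3.39 FPKM in vehicle, 6.34 and 5.22 in rimonabant, and 6.15, 6.30 and 5.86 in TXX-1-10. All treated libraries were above all vehicle libraries, and the treated groups overlapped. SMAD7 was 1.71-fold higher under rimonabant (0.77, SE 0.11, adjusted p = 0.000133) and 1.80-fold higher under TXX-1-10 (0.85, SE 0.10, adjusted p = 5.11e-06). Between the compounds the difference was 0.08 with a 95% interval of -0.14 to 0.30 (adjusted p = 0.524).

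TGFBI (ENSG00000120708, chr5:136028895-136063818, plus strand), a secreted matrix protein named for its induction by TGF-beta, fell under both compounds. It had 7.53, 7.09 and 7.14 FPKM in vehicle, 4.87, 4.64 and 4.47 in rimonabant, and 2.03, 2.01 and 2.30 in TXX-1-10. The 3 groups did not overlap, with TXX-1-10 lowest. TGFBI was 1.56-fold lower under rimonabant (-0.64, SE 0.06, adjusted p = 3.99e-05), 3.43-fold lower under TXX-1-10 (-1.78, SE 0.07, adjusted p = 6.91e-09), and 2.21-fold lower under TXX-1-10 than under rimonabant (-1.14, SE 0.07, adjusted p = 3.79e-07). Its promoter, chr5:136028738-136028987, held none of the 6 motifs. The 3 genes of the 9-library fit whose log2 counts, scaled to library size, followed TGFBI most closely were CCNB2 (a mitotic cyclin), ARHGDIB and RBMX (an RNA-binding protein), with Pearson's r of 0.999, 0.999 and 0.998 over the 9 libraries. These libraries form 3 treatment groups, so r here describes the step between groups.

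**Figure D3:**
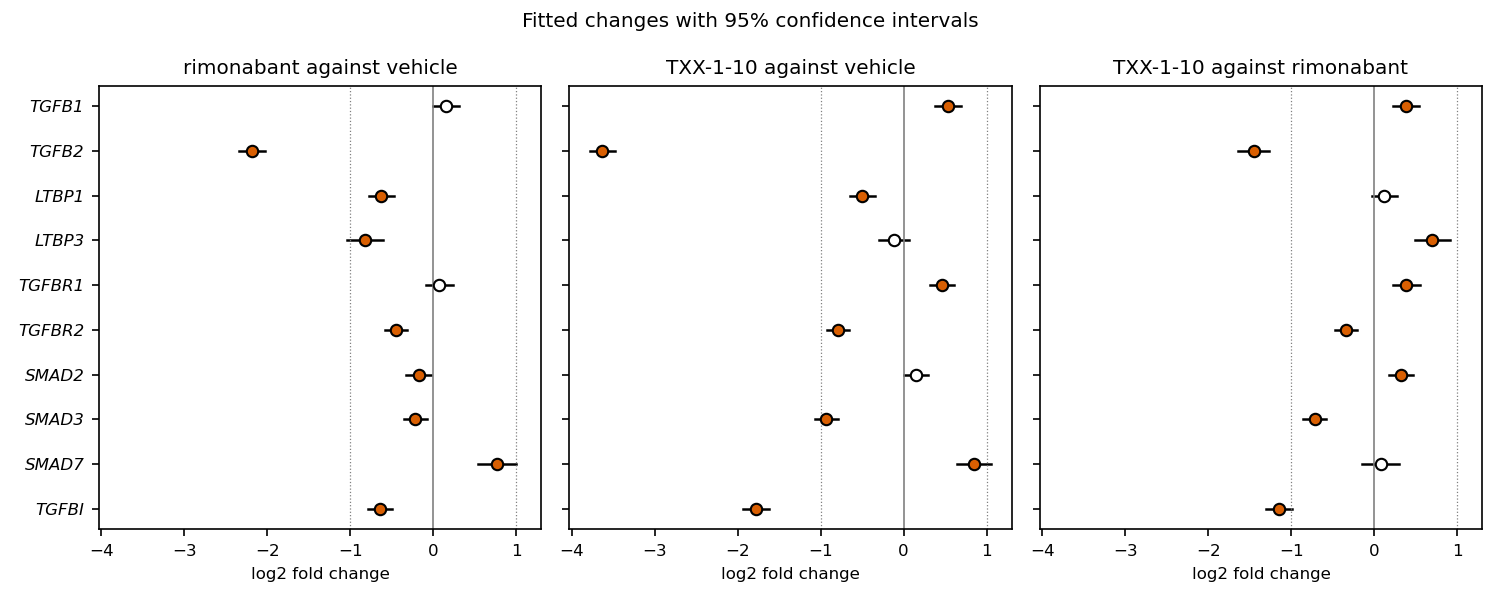
Log2 fold change of each of the 10 genes (horizontal axis) in 3 comparisons, with 95% confidence intervals as bars, filled points for genes that passed and open points for those that did not (dotted lines at a log2 fold change of 1 in either direction). TGFB2 lies at -2.18 and -3.63 against vehicle, and SMAD7 at 0.77 and 0.85.

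Counted together, 8 of the 10 genes passed for TXX-1-10 against vehicle, 3 higher and 5 lower, and 2 of them, TGFB2 and TGFBI, were past both thresholds. This was 5 of 6 in the 9-library fit, where 74.4% of all genes passed, and 3 of 4 in the 8-library fit, where 75.3% did, so passing was common in this comparison. Of all genes 30.5% passed as higher and 43.8% as lower in the 9-library fit, and 34.7% and 40.6% in the 8-library fit. Past both thresholds were 11.8% and 12.7% of all genes. For rimonabant against vehicle 8 genes passed, 1 higher (SMAD7) and 7 lower, again 5 of 6 and 3 of 4, against 48.9% and 46.5% of all genes (23.7% higher and 25.2% lower in the 9-library fit, 23.7% and 22.8% in the other). TGFB2 alone was past both thresholds there, as were 1.13% and 1.49% of all genes. For TXX-1-10 against rimonabant 8 genes passed, 4 higher and 4 lower, 5 of 6 and 3 of 4, against 64.5% and 60.6% of all genes (25.1% higher and 39.4% lower in the 9-library fit, 26.7% and 33.9% in the other). TGFB2 and TGFBI were past both thresholds, as were 5.93% and 6.41% of all genes. The median log2 fold change of the 10 genes was -0.31, -0.33 and 0.10 in these comparisons, beside medians over all genes of -0.09, -0.02 and -0.08 in the 9-library fit and -0.04, 0.0030 and -0.04 in the 8-library fit. The members, and the gene lists below, were chosen with earlier results of these data known. Their counts beside the shares of all genes are therefore descriptive and not a test.

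Among 12 ligands of the family, 4 were tested, and under TXX-1-10 the largest change was in GDF15, a stress-induced ligand. Under rimonabant it was in TGFB2. GDF15 had 2.13 ± 0.109 FPKM in vehicle (n = 3), 5.57 ± 0.787 in rimonabant (n = 2) and 46.8 ± 5.75 in TXX-1-10 (n = 3), a rise of 4.45 on the log2 scale under TXX-1-10 (SE 0.12, adjusted p = 2.25e-11) and 1.39 under rimonabant (SE 0.16, adjusted p = 3.26e-05). Of the 4 ligands, 2 rose and 2 fell under TXX-1-10, and 1 rose and 1 fell under rimonabant. Of all genes 74.4% and 75.3% passed under TXX-1-10 in the 9-library and 8-library fits, and 48.9% and 46.5% under rimonabant. Of the genes of the latent complex and its activation, 9 of 14 were tested, and 2 rose and 5 fell under TXX-1-10 while 1 rose and 6 fell under rimonabant, so the 7 that passed under TXX-1-10 were near the share over all genes (74.4% and 75.3%), and for rimonabant that share was 48.9% and 46.5%. THBS1 (thrombospondin 1, an activator of latent TGF-beta that TGF-beta also induces) fell from 60.6 ± 1.01 FPKM in vehicle to 17.4 ± 1.02 in rimonabant and 5.79 ± 0.291 in TXX-1-10 (SD, n = 3). Its log2 fold changes were -1.80 (adjusted p = 6.96e-08) and -3.39 (adjusted p = 3.35e-10), and it was lower under TXX-1-10 than under rimonabant (-1.59, adjusted p = 1.39e-08). The median of this list was -0.49 under TXX-1-10 and -0.36 under rimonabant.

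Of 12 receptors and co-receptors 8 were tested, and 5 rose and 3 fell under TXX-1-10, with 1 in each direction under rimonabant (TGFBR2 lower and ACVR1 higher), beside 74.4% and 75.3% of all genes passing under TXX-1-10 and 48.9% and 46.5% under rimonabant. ACVR1, a type I receptor for activins and BMPs, rose by 1.07 on the log2 scale under TXX-1-10 (SE 0.07, adjusted p = 1.75e-08) and by 0.62 under rimonabant (adjusted p = 4.46e-05). Of 12 SMADs and SMAD partners 8 were tested, with 3 higher and 1 lower under TXX-1-10 and 2 in each direction under rimonabant, against the same shares of all genes. SMAD4, the common partner of SMAD2 and SMAD3, named after its values were seen, had 3.61 ± 0.132 FPKM in vehicle, 4.67 ± 0.181 in rimonabant (n = 2) and 5.12 ± 0.159 in TXX-1-10. It was higher under TXX-1-10 (0.50, adjusted p = 4.62e-06) and under rimonabant (0.37, adjusted p = 0.000547). SMAD6, the other inhibitory SMAD, was not tested. Also named after its values were seen, it had 132 and 155 reads in 2 vehicle libraries, 136 and 119 in 2 rimonabant libraries, and 69, 61 and 67 in TXX-1-10. Its 3 TXX-1-10 counts were below all others.

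Of 16 negative regulators 14 were tested, and 8 rose and 5 fell under TXX-1-10, while 4 rose and 3 fell under rimonabant. Of all genes 74.4% and 75.3% passed under TXX-1-10 and 48.9% and 46.5% under rimonabant, and the 7 of 14 under rimonabant are close to that share. TGIF1, a corepressor that binds SMAD2, went from 7.22 ± 0.129 FPKM in vehicle to 8.50 ± 0.0726 in rimonabant and 21.3 ± 0.558 in TXX-1-10. It changed by 1.56 on the log2 scale under TXX-1-10 (SE 0.04, adjusted p = 8.06e-10) and 0.24 under rimonabant (SE 0.04, adjusted p = 0.00148). SKIL, a SMAD corepressor that TGF-beta also induces, rose by 1.08 under TXX-1-10 (adjusted p = 7.19e-09), and for rimonabant the difference was 0.15 (adjusted p = 0.084). The list medians were 0.18 and 0.03.

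Genes that TGF-beta is known to induce moved both ways. Of 28 such genes 23 were tested, TGFBI and SMAD7 among them. Under TXX-1-10 all 23 passed, 11 higher and 12 lower, with 5 and 7 past both thresholds, where 74.4% and 75.3% of all genes passed and 11.8% and 12.7% were past both. Under rimonabant 7 were higher and 10 lower, with 2 and 3 past both thresholds. Of all genes 48.9% and 46.5% passed there, and 1.13% and 1.49% were past both thresholds. By direction, 23.7% of all genes passed as higher in each fit, and 25.2% and 22.8% as lower. Against rimonabant TXX-1-10 had 10 higher and 8 lower (64.5% and 60.6% of all genes passed). CCN2 (connective tissue growth factor) had 159.8 ± 1.65 FPKM in vehicle, 141 ± 7.26 in rimonabant and 21.9 ± 1.49 in TXX-1-10. The change was -2.87 on the log2 scale under TXX-1-10 (adjusted p = 3.35e-10), -0.18 under rimonabant (adjusted p = 0.0241) and -2.69 between them (adjusted p = 1.82e-09). CCN1, a related matrix protein, likewise differed between the compounds (-1.82, adjusted p = 1.39e-08), with -1.91 under TXX-1-10 (adjusted p = 3.79e-09) and -0.08 under rimonabant (adjusted p = 0.308).

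The targets that rose included transcription factors and a cell cycle inhibitor. BHLHE40, a transcriptional repressor, rose by 2.15 under TXX-1-10 (adjusted p = 3.35e-10) and 1.08 under rimonabant (adjusted p = 2.48e-07), and CDKN1A (p21) by 2.03 (adjusted p = 6.63e-10) and 1.48 (adjusted p = 7.49e-08). JUNB, an AP-1 subunit, rose by 1.76 (adjusted p = 1.68e-08) and 0.76 (adjusted p = 4.17e-05), and KLF10 by 0.66 (adjusted p = 1.3e-06) and 0.35 (adjusted p = 0.000458). PMEPA1, a membrane protein that restrains SMAD activation, rose by 0.69 under TXX-1-10 (adjusted p = 5.13e-05), and its difference under rimonabant was -0.18 (adjusted p = 0.225). TAGLN (transgelin, an actin-binding protein) fell by 1.16 under TXX-1-10 (adjusted p = 1.45e-07) and by 1.08 under rimonabant (adjusted p = 7.98e-06), with a difference of -0.08 between the compounds (adjusted p = 0.537). The median over the 23 tested targets was -0.49 under TXX-1-10 and -0.10 under rimonabant.

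**Figure D4:**
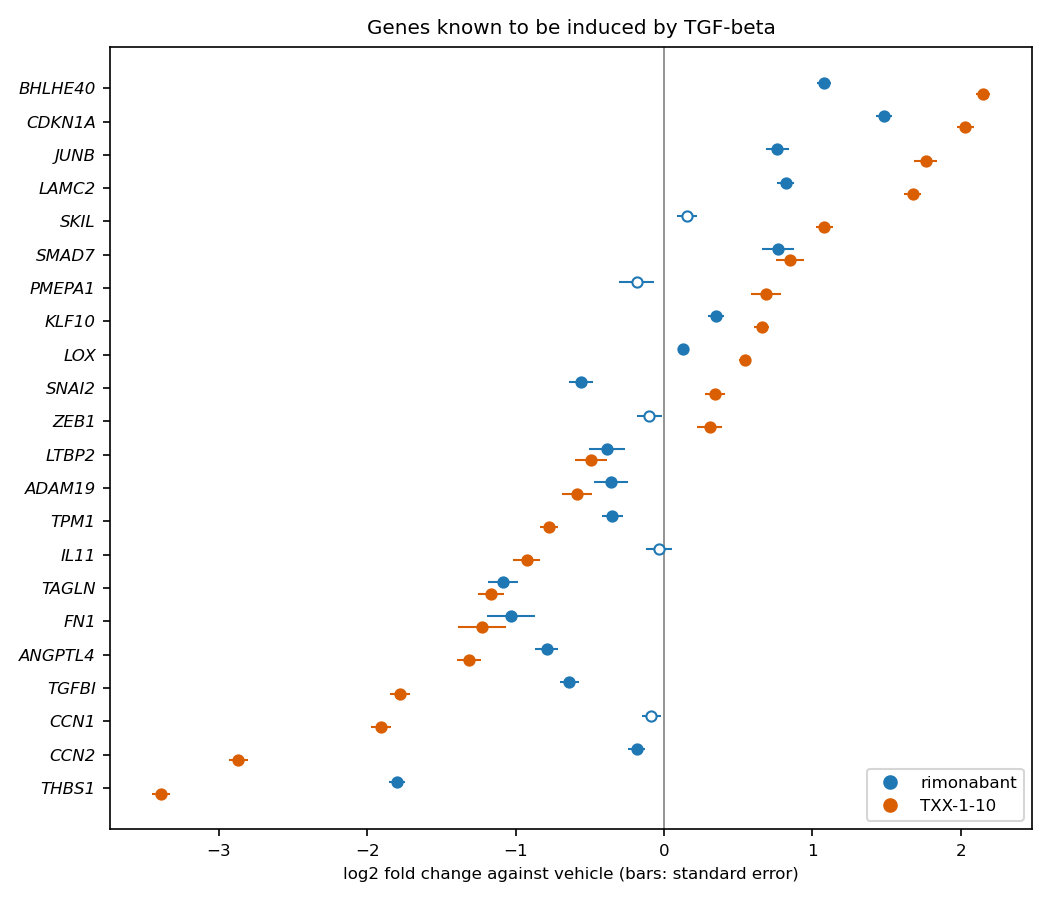
Log2 fold change against vehicle (horizontal axis, bars 1 SE) of 22 of the 23 tested genes known to be induced by TGF-beta, for rimonabant (blue) and TXX-1-10 (orange), filled where the gene passed. The genes spread from THBS1 at -3.39 to BHLHE40 at 2.15 under TXX-1-10, with 11 of the 22 above 0 and 11 below.

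In the related BMP branch, 7 of 16 genes were tested, and 1 rose and 5 fell under TXX-1-10 and 3 fell under rimonabant, beside 74.4% and 75.3% of all genes passing under TXX-1-10 and 48.9% and 46.5% under rimonabant. ID1, an inhibitor of differentiation factors induced by BMP, had 172 ± 2.10 FPKM in vehicle, 132 ± 15.3 in rimonabant and 58.9 ± 6.26 in TXX-1-10. It fell by 1.55 on the log2 scale under TXX-1-10 (adjusted p = 1.55e-07) and by 0.38 under rimonabant (adjusted p = 0.00568). ID3, of the same family, fell by 1.25 (adjusted p = 1.29e-06) and by 0.29 (adjusted p = 0.0308). ID2 and BMP2, named after their values were seen, were not tested and had more reads under TXX-1-10. ID2 had 10 and 9 reads in vehicle, 17 and 38 in rimonabant, and 50, 45 and 47 in TXX-1-10. For BMP2 they were 42 and 44, then 55 and 57, then 145, 157 and 160. SMAD6 and SMAD9, also untested, had fewer reads in each TXX-1-10 library than in the vehicle libraries that list them.

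Without both libraries that stood apart, rimonabant replicate 1 and TXX-1-10 replicate 3, a choice made after the data were seen, TGFB2 was at -3.64 under TXX-1-10, TGFBI at -1.84, SMAD3 at -0.89, TGFBR2 at -0.75, TGFB1 at 0.52 and SMAD7 at 0.88. All 30 values of the 10 genes in 3 comparisons kept their direction and their side of the adjusted p threshold. For TGFB2, LTBP3, TGFBR1 and SMAD7, rimonabant replicate 1 was never in the fit, so only TXX-1-10 replicate 3 was left out. Their values for rimonabant against vehicle thus rest on the same libraries as before, and their direction could not change. The counts summed over the genes of each fit give another library size, which moved the median of all genes by 0.17 in the 9-library fit and 0.14 in the 8-library fit for TXX-1-10 against vehicle. Under it each of the 8 genes that passed in that comparison kept its direction.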

How the data were processed

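Poly(A) RNA of 9 libraries was measured, 3 each of vehicle, rimonabant and TXX-1-10, grouped by the treatment given in the labels. The authors deposited, for each library, a list of genes with read counts and FPKM. Per the submitters' processing notes HISAT2 2.0.5 and featureCounts 1.5.0-p3 were used, and the study's methods count uniquely mapped exonic reads. All 27615 listed genes carry the coordinates of GENCODE 29 on GRCh38, and listed lengths join all exons of a gene. The library size behind the FPKM was recovered here from count, FPKM and length, and served as library size in the tests.

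The counts were tested with edgeR 4.0.16 (estimateDisp, glmQLFit, glmQLFTest; R 4.3.3) in 1 fit of 3 groups, for genes listed in all 9 libraries with a mean FPKM of at least 1, and in a second fit of 8 libraries for members missing from rimonabant replicate 1. SE is the absolute log2 fold change over the square root of F. Levels are the deposited FPKM as mean ± SD. On simulated counts for TXX-1-10 against vehicle, all 200 genes changed 3-fold were recovered at both thresholds, with 0 false ones. This held in the 9-library fit (4236 genes) and in the 8-library fit (9369 genes). At the adjusted p threshold alone there were 7 and 12 false ones. The simulation gave all genes a common spread and held no length trend. It therefore does not cover smaller changes or the length-shifted libraries. Alternatives were TMM, the sum of counts over the genes of the fit as library size, DESeq2 1.42.0, limma 3.58.1 on log2(FPKM + 1) and log2(FPKM + 0.1), other filters, a replicate block, 2 groups only, removal of the length trend (a lowess span of 0.3), the 8 libraries for every member, and each library left out. The members and lists were chosen with earlier results of these data known. Genes were named by a rule: all members, up to 4 per pathway list and comparison with the largest changes past both thresholds and groups that do not overlap, fixed target genes (CCN2, JUNB, KLF10 and PMEPA1; 1 other is not reported here), the 3 genes most like TGFBI, and PBXIP1. HNRNPUL1 was added for its overlap with TGFB1. Promoters are RefSeq's on GRCh38.p14, matched by symbol for all 10 members. Figures were drawn with matplotlib 3.10.9.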

Additional observations from a re-analysis of the deposited data

How the results depend on the processing

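Over 22 alternatives and the 10 genes in 3 comparisons, 617 values kept their direction and their side of the threshold, 12 passed where they had not, 17 no longer passed and 5 changed sign. TGFB2 ranged from -3.67 to -2.96 for TXX-1-10 against vehicle and passed in all 22, as it did for rimonabant against vehicle (-2.21 to -1.94) and between the compounds (-1.49 to -1.03). For TGFB2, LTBP3, TGFBR1 and SMAD7, leaving out rimonabant replicate 1 and using 8 libraries for every member both repeat the main fit. Those values, counted among the 617, could not differ from it. For the same genes, leaving out both length-shifted libraries is the same fit as leaving out TXX-1-10 replicate 3. TGFBI was fitted in 21 and was past both thresholds in all of them for TXX-1-10 against vehicle (-1.84 to -1.41), and in 20 between the compounds (-1.20 to -0.86). With a mean FPKM of at least 5, SMAD2, LTBP3 and TGFBI were no longer in the fit, and the genes passing were 5 for rimonabant against vehicle and 5 between the compounds, with 1 past both thresholds for TXX-1-10 against vehicle and 1 between the compounds. With limma on log2(FPKM + 1), 1 gene was past both thresholds between the compounds. The values that changed sign were LTBP3 for TXX-1-10 against vehicle with the sum of counts over the genes of the fit as library size (0.019), SMAD2 for rimonabant against vehicle with the length trend removed (0.14), TGFBR1 for rimonabant against vehicle without rimonabant replicate 2 (-0.027, with 0.17 at the other end of the range), and SMAD7 between the compounds without rimonabant replicate 3 (-0.054, with 0.22 at the other end). None of these 4 passed, and their causes were not tested. TGFB1 for rimonabant against vehicle passed without rimonabant replicate 2 (0.22, adjusted p = 0.0133), and SMAD2 for TXX-1-10 against vehicle without vehicle replicate 1 (0.20, adjusted p = 0.0218). When single libraries were left out, 8 to 9 genes passed for TXX-1-10 against vehicle, 7 to 8 for rimonabant against vehicle and 8 between the compounds. Leaving out 1 rimonabant library in the 8-library fit leaves the other one, whose spread is then assumed to be that of the other groups. No group has over 3 libraries. Genes of low FPKM can rest on few reads, although SMAD2, with the longest listed length, had 1113 to 1566.

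The replicate numbers gave no sign of a pairing of treated with vehicle libraries, but could not settle it. Same-numbered libraries deviated with correlations of -0.06, 0.01 and -0.07 (TXX-1-10 and vehicle) and -0.05, 0.04 and 0.04 (rimonabant and vehicle). The deviations of treated libraries went with gene length (Spearman's rank correlation -0.694, 0.667 and 0.477 for rimonabant, 0.591, 0.655 and -0.692 for TXX-1-10). Those of vehicle did not (0.0029, 0.028 and -0.025), so a pairing with vehicle could be hidden. Between same-numbered TXX-1-10 and rimonabant libraries the deviations correlated at -0.79, 0.83 and -0.61. Rimonabant replicate 1 and TXX-1-10 replicate 3 are length-shifted and carry different numbers, so these values cannot tell whether the 2 groups were paired. With the replicate block, 8 genes passed for TXX-1-10 against vehicle, 7 for rimonabant against vehicle (SMAD2 at -0.18, adjusted p = 0.0847, no longer passed) and 8 between the compounds. With the block and the length trend removed, SMAD2 for rimonabant against vehicle was 0.13.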
